A study of Mus musculus with 16 samples.

Results

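The collagen genes were read in the livers of 16 mouse offspring whose mothers had inhaled either UV-Titan, nanoparticles of coated titanium dioxide, or filtered air. A gene counted as a collagen where a non-control spot of the array carried a symbol made of Col, a type number, the letter a and a chain number. This gave 40 genes of the 27962 gene names on the array, on 96 spots with 78 different probes, and for each gene the probe that was brightest on average in liver was used. There were 11 fibrillar collagens (types I, II, III, V, XI, XXIV and XXVII), 6 chains of basement membrane collagen (type IV) and 23 chains of other types. In the liver channel, 29 of the 40 were well above background on all 16 arrays, 5 on 3 to 15 arrays and 6 on fewer than 3, so 34 were tested among 18849 genes. The tested set held all 11 fibrillar, 4 of 6 basement membrane and 19 of 23 other collagens.

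All dams were time-mated C57BL/6BomTac mice. The UV-Titan dams breathed about 42 mg/m3 of the particles for 1 hour a day from gestation day 8 to 18, and the control dams breathed clean filtered air on the same plan. The daughters were 3 controls (replicates 25, 35 and 40) and 5 UV-Titan animals (2, 8, 10, 16 and 21), and the sons 4 controls (31, 33, 41 and 43) and 4 UV-Titan animals (3, 4, 5 and 17), with 1 array for each animal. Replicate numbers are those in the sample titles, and values are given below in that order. No genotype, transgene or treatment of the pups themselves is named. The labels do not say whether an animal was a newborn (postnatal day 2) or a weanling (postnatal day 23 or 24), nor which animals were litter mates, so the p-values measure the spread between these animals only.

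Collagens are triple-helical proteins in which glycine is the smallest residue and takes the third place of each repeat of the chain. Fibrillar collagens assemble into the load-bearing fibres of the portal tracts and of scars, with types I and III as the main ones in liver. Type IV collagen forms the sheet-like network of basement membranes, and the hepatic stellate cell, the portal fibroblast and the endothelial cell are the usual sources of collagen in liver. Other types decorate fibrils, form beaded filaments, span the cell membrane or, like type XVIII, carry heparan sulfate chains. Type XVIII is also made by hepatocytes.

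The repeat that defines the family could be read directly in some array probes. Of 41174 probes of 60 bases, 3 had a reading frame without a stop in which a glycine codon (GGN) recurred every 3 codons along the whole probe, and all 3 belonged to fibrillar collagens. They are printed below 5′ to 3′ as deposited, with the glycine codons in capitals, because they show what the chains share.
Col11a2: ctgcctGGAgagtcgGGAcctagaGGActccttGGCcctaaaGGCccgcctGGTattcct
Col5a1: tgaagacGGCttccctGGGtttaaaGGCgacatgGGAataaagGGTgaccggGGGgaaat
Col5a3: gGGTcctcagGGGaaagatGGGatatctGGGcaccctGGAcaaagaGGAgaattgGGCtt
In build mm7 the array files place these probes at chr17:32131401-32131567 (Col11a2), chr2:27994034-27996457 (Col5a1) and chr9:20655471-20656200 (Col5a3, minus strand). Each span is longer than 60 bases, at 167, 2424 and 730 bases. None of the 3 was the brightest probe of its gene. The Col11a2 and Col5a1 repeat probes were well above background on 16 arrays, and the Col5a3 one on 0. An annotation of build mm7 was not used here, so exons and introns were not assigned.

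The sequences before the start sites of Col1a2 and Col3a1 are shown next because these genes varied together between livers, as described below. They are the 250 bases upstream of the gene start on the plus strand, from RefSeq with build GRCm38.p6, at chr6:4505368-4505617 for Col1a2 and chr1:45311288-45311537 for Col3a1. Capitals mark every match, on either strand, to the CCAAT box, the TATAAA box and the GGGCGG box.
Col1a2: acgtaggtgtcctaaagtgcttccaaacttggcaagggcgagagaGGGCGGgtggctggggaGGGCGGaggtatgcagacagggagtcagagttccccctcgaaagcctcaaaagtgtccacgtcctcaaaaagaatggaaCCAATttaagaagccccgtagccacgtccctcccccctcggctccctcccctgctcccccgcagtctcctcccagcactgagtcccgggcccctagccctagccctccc
Col3a1: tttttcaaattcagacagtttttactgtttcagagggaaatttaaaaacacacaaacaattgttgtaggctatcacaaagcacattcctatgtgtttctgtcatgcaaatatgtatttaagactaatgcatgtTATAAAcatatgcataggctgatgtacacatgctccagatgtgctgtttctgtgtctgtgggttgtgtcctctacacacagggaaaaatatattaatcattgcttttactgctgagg
The Col1a2 window held GGGCGG starting 205 and 188 bases before the start and CCAAT starting 109 bases before it. The Col3a1 window held 1 match, TATAAA, starting 117 bases before the start. Over all 32851 windows of this length, 33.8% held CCAAT, 12.4% TATAAA and 32.7% GGGCGG, so each of these matches is common. Windows were listed for 32 of the 40 collagens, 35 windows in all, of which 34.3% held CCAAT, 14.3% TATAAA and 54.3% GGGCGG. Several starts of a gene share sequence, and these shares are descriptions with no test. The windows of Col4a1 (chr8:11312777-11313076, minus strand) and Col4a2 (chr8:11312555-11312854, plus strand), each from 250 bases before to 50 after the start, faced away from each other and shared 78 bases. The windows of Col4a5 and Col4a6 also lay head to head on chromosome X, with 842 bases between them.

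Each array held liver RNA against a universal mouse reference RNA, and values are log2 ratios of liver over reference unless the liver channel is named. The label fields and the labelling protocol named opposite dyes for liver. The signals settled this as red: the hepatocyte genes Ttr and Apoa1 had log2 red over green ratios between 4.42 and 5.74 on the 16 arrays, and Xist and Ddx3y followed the labelled sex on all of them. The share of spots well above background for liver ranged from 57.7% to 67.1% over the arrays. The 5 slides were scanned on 4 days. Of 9 tested skeletal muscle markers, the mean deviation from the 16-array mean was 2.45 log2 on male UV-Titan 5 and between -0.39 and 0.40 on the other arrays. Of 10 tested exocrine pancreas markers, it was 2.30 on male control 31, 1.49 on male control 33 and between -0.52 and -0.09 elsewhere. The muscle gene Pvalb and the pancreas gene Pnlip were well above background on 0 arrays. Values without these 3 arrays are given beside the collagen counts for males and between the sexes, the spread, the pairs and the main members where they move most.

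The ratios to the reference set some collagens far apart. Col14a1, a collagen that binds to fibril surfaces, had the highest mean ratio at 4.95, followed by Col18a1, a heparan sulfate carrier of vessel and sinusoid walls, at 3.93, Col13a1, a transmembrane collagen, at 3.48 and the fibrillar Col27a1 at 1.74. At the other end were Col8a1, a short-chain collagen of vessels, at -4.15, Col16a1, a fibril-associated collagen, at -2.86, Col1a1 at -2.80 and Col1a2 at -2.78. By the probes used, the 4 tested type IV chains lay near the reference, from -0.54 for Col4a4 to 0.39 for Col4a6. The untested Col4a5, well above background in liver on 1 array, had -0.94. A low ratio says that the probe gave less signal with liver than with the reference mixture, not that the transcript was scarce. Liver was red on all 16 arrays, so an effect of the dye on a probe cannot be told apart from amount. The order within this list holds for ratios only, and for some genes it depended on the probe. A second Col13a1 probe, well above background on 15 arrays, had a mean ratio of 0.46, the other 2 Col27a1 probes had 1.354 and 1.628, and the other 2 Col1a1 probes -1.92 and -1.18. Second probes of Col4a6 and Col4a4, well above background on 16 and 15 arrays, had -2.27 and 0.50.

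The 6 collagens left out of the tests were Col4a3 and Col4a5 of the basement membrane and Col9a1, Col10a1, Col19a1 and Col28a1 of the other types. Liver signal for Col4a3 was well above background on 2 arrays, both male UV-Titan. Col4a5, Col10a1 and Col19a1 were above it on 1 array each, and Col9a1 and Col28a1 on 0. In the reference channel Col4a5 was well above background on all 16 arrays. Among tested genes, Col12a1 was well above background in liver on 6 arrays, Col15a1 and Col23a1 on 7, Col22a1 on 11 and Col9a3 on 12. Col15a1 and Col23a1 were above it on none of the 3 female control arrays, so no female difference of either is printed or drawn, and their fitted values over both sexes and between the sexes rest on a bound.

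No collagen passed the threshold for maternal UV-Titan in daughters or in sons. In females, 18 of the 34 tested collagens had a higher mean with UV-Titan and 16 a lower one, with a median log2 difference of 0.01, beside 58.7% of all 18849 tested genes higher and a median of 0.02. With limma and Benjamini-Hochberg adjustment over all tested genes 0 collagens passed an adjusted p of 0.05, where 0% of all genes did. At an unadjusted p under 0.05 there was 1 collagen, Col18a1, against 6.73% of all genes. The medians were 0.08 for the 11 fibrillar collagens (7 higher), 0.01 for the 4 type IV chains (2 higher) and -0.02 for the 19 others (9 higher). Without Col15a1 and Col23a1, which were dim on every female control array, the count was 18 higher and 14 lower.

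In males, 27 collagens had a higher mean with UV-Titan and 7 a lower one. The median was 0.10, beside 56.7% of all tested genes higher and a median of 0.02. Again 0 collagens passed the adjusted threshold in limma, and 0% of all genes did. At an unadjusted p under 0.05 there were 2, Col7a1 and Col14a1, against 4.94% of all genes. The fibrillar median was 0.10 (9 of 11 higher), the type IV median 0.07 (4 of 4 higher) and the median of the others 0.10 (14 of 19 higher). Without the 3 arrays that carried muscle or pancreas transcripts 29 were higher and 5 lower in males, with a median of 0.08 beside 56.9% of all genes higher, and medians of 0.08 for fibrillar, 0.04 for type IV and 0.08 for other types. Many collagens varied together over the 16 livers, so a count of genes on one side is no count of independent events.

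Averaged over both sexes, 27 collagens were higher and 7 lower, beside 60.6% of all tested genes higher. The median was 0.05. None passed the adjusted threshold in limma (0 collagens and 0% of all genes), and 3 had an unadjusted p under 0.05, Col11a1 and Col18a1 higher and Col12a1 lower, against 7.09% of all genes. The female effect minus the male effect was above 0 for 13 collagens and below 0 for 21, where 52.5% of all genes were above 0. There 0 collagens passed the adjusted threshold, as did 0% of all genes, and 0 collagens against 4.29% of all genes had an unadjusted p under 0.05. Males against females gave 19 higher and 15 lower collagens, where 48.5% of all genes were higher in males. No collagen differed between the sexes by limma, with 0 at an unadjusted p under 0.05 against 4.28% of all genes, while 0.0477% of all genes, 9 in number, passed the adjusted threshold. Those 9 included Xist, Ddx3y, Eif2s3y and Tsix. The count between the sexes rested on the 3 arrays with muscle or pancreas transcripts: without them 6 collagens were higher and 28 lower in males, beside 47.3% of all genes higher. Over both sexes it stayed at 27 and 7, and the female minus the male effect was above 0 for 10 collagens and below for 24.

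**Figure D1:**
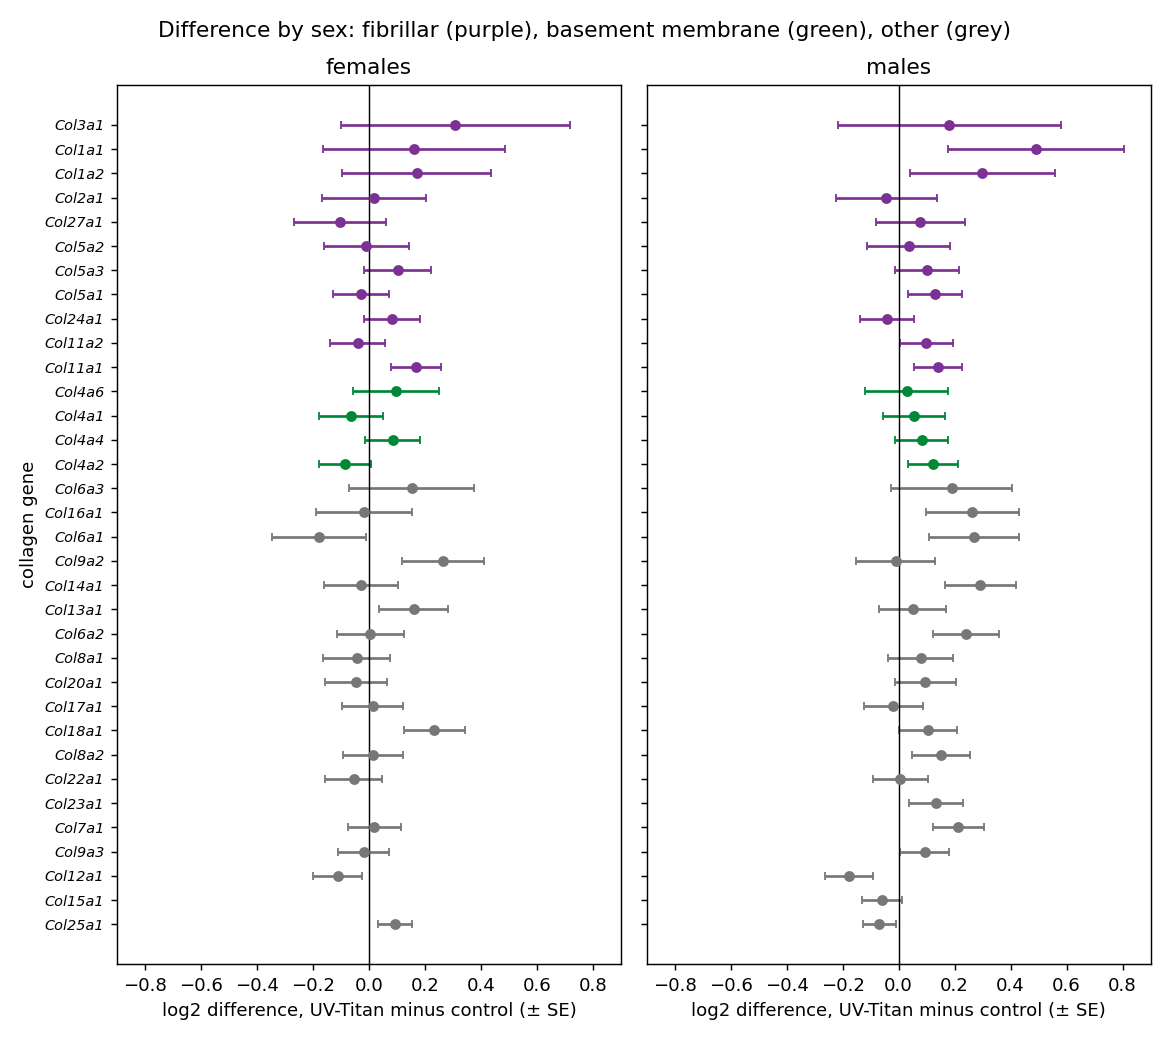
Log2 difference between UV-Titan and control livers for each of the 34 tested collagens, in females (left, without Col15a1 and Col23a1) and males (right), as a point with its standard error from the limma fit. Col1a1, Col1a2 and Col3a1 have the widest error bars in both sexes, and in males the points of 27 genes lie to the right of 0.

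Col1a1 and Col1a2 encode the chains that make up type I collagen, the main fibre of scar and tendon. Col1a1 ratios were -3.08, -2.46 and -3.17 in female controls and -2.65, -3.20, -3.06, -1.94 and -2.86 in female UV-Titan livers. They were -2.34, -2.87, -3.49 and -3.43 in male controls and -2.30, -2.94, -1.84 and -3.07 in male UV-Titan livers. The highest livers were male UV-Titan 5, female UV-Titan 16, male UV-Titan 3 and male control 31, the lowest male controls 41 and 43, and treated and control animals overlapped in both sexes. Group means were -2.90 ± 0.39 (SD, n = 3), -2.74 ± 0.49 (n = 5), -3.03 ± 0.54 (n = 4) and -2.54 ± 0.57 (n = 4). The UV-Titan difference was 0.16 ± 0.32 log2 (SE) in females and 0.49 ± 0.31 in males (limma adjusted p = 0.967 and 0.954). The 95% interval of the male difference ran from -0.17 to 1.16 log2. Leaving out 1 male array at a time moved that difference between 0.26, without male UV-Titan 5, and 0.72, and it was 0.69 without male controls 31 and 33 and male UV-Titan 5.

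Without female UV-Titan 16 the female Col1a1 difference was -0.04. In single slides that held both groups, each with 1 array per group, it was -0.20, 0.12 and 1.14 in females. The same values in males were 0.56, 0.49 and 1.13. The other 2 Col1a1 probes followed the one used with r of 0.949 and 0.716 over 16 arrays, and gave -0.05 for both in females and 0.28 and 0.18 in males. The direction in females therefore differed between probes of the gene.

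For Col1a2 the ratios were -3.37, -2.61 and -2.82 in female controls and -2.74, -3.24, -2.81, -2.33 and -2.68 in female UV-Titan livers. Male livers had -2.41, -2.75, -3.29 and -3.09 without and -2.12, -2.85, -2.14 and -3.23 with exposure of the dam. The same male UV-Titan animals, 3 and 5, were highest here, and female control 25 was lowest. Its UV-Titan difference was 0.17 ± 0.27 in females and 0.30 ± 0.26 in males (limma adjusted p = 0.952 and 0.959). Leaving out 1 array moved the female value between -0.05, without female control 25, and 0.33, without female control 35. The male value moved between 0.14, without male UV-Titan 3, and 0.52, without male UV-Titan 17, and was 0.46 without the 3 arrays with muscle or pancreas transcripts. Within slides, with 1 array per group, it was 0.44, 0.26 and 0.97 in males and -0.14, 0.01 and 1.04 in females.

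Col3a1, the chain of the fine reticular fibres of liver, varied most. Its ratios were -2.23, -1.78 and -1.84 in female controls and -1.78, -2.26, -1.84, -0.89 and -1.43 in female UV-Titan livers. In males they were -0.91, -1.34, -2.28 and -2.004 in controls and -0.73, -1.95, -0.58 and -2.55 after UV-Titan. Male UV-Titan livers alone covered both extremes of the 16 ratios, with 5 at the top and 17 at the bottom. In the liver channel alone, as log2 signal, female UV-Titan 16 was highest (13.90) and male control 41 lowest (11.79). The reference signal was 14.23 to 14.29 on slide 5, which held male UV-Titan 17, and 13.50 to 13.83 on the other slides. Group means of the ratios were -1.95 ± 0.24 (SD, n = 3), -1.64 ± 0.51 (n = 5), -1.64 ± 0.62 (n = 4) and -1.45 ± 0.95 (n = 4). The UV-Titan difference was 0.31 ± 0.41 in females and 0.18 ± 0.40 in males (limma adjusted p = 0.936 and 0.98), and the male value changed sign to -0.11 without male UV-Titan 5, to -0.06 without male UV-Titan 3 and to -0.03 without male control 41. Without the 3 arrays with muscle or pancreas transcripts it was 0.40, and within single slides, with 1 array per group, it was 0.34, 0.33 and 1.27. The female difference was 0.12 without female UV-Titan 16, and 0.00, 0.00 and 1.33 within slides. A second Col3a1 probe, well above background on all arrays, followed the one used only loosely (r = 0.364 over 16 arrays) and gave -0.01 in females and 0.22 in males.

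Col5a1, a chain of the type V collagen that seeds type I fibrils, stayed within a narrower range. It was -1.13, -0.77 and -1.10 in female controls, -1.04, -1.18, -1.12, -0.81 and -0.9985 in female UV-Titan, -0.96, -1.08, -1.01 and -1.16 in male controls and -0.91, -1.05, -0.74 and -0.99 in male UV-Titan livers. The groups overlapped. Its differences were -0.03 ± 0.10 and 0.13 ± 0.10 (limma adjusted p = 0.986 and 0.954). The remaining fibrillar genes had differences between -0.10 (Col27a1) and 0.17 (Col11a1) in females and between -0.04 (Col2a1 and Col24a1) and 0.14 (Col11a1) in males. Col11a1, a chain of the cartilage-type fibril collagen XI, had the smallest fibrillar p over both sexes, at 0.15 ± 0.06 log2 (limma adjusted p = 0.627).

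**Figure D2:**
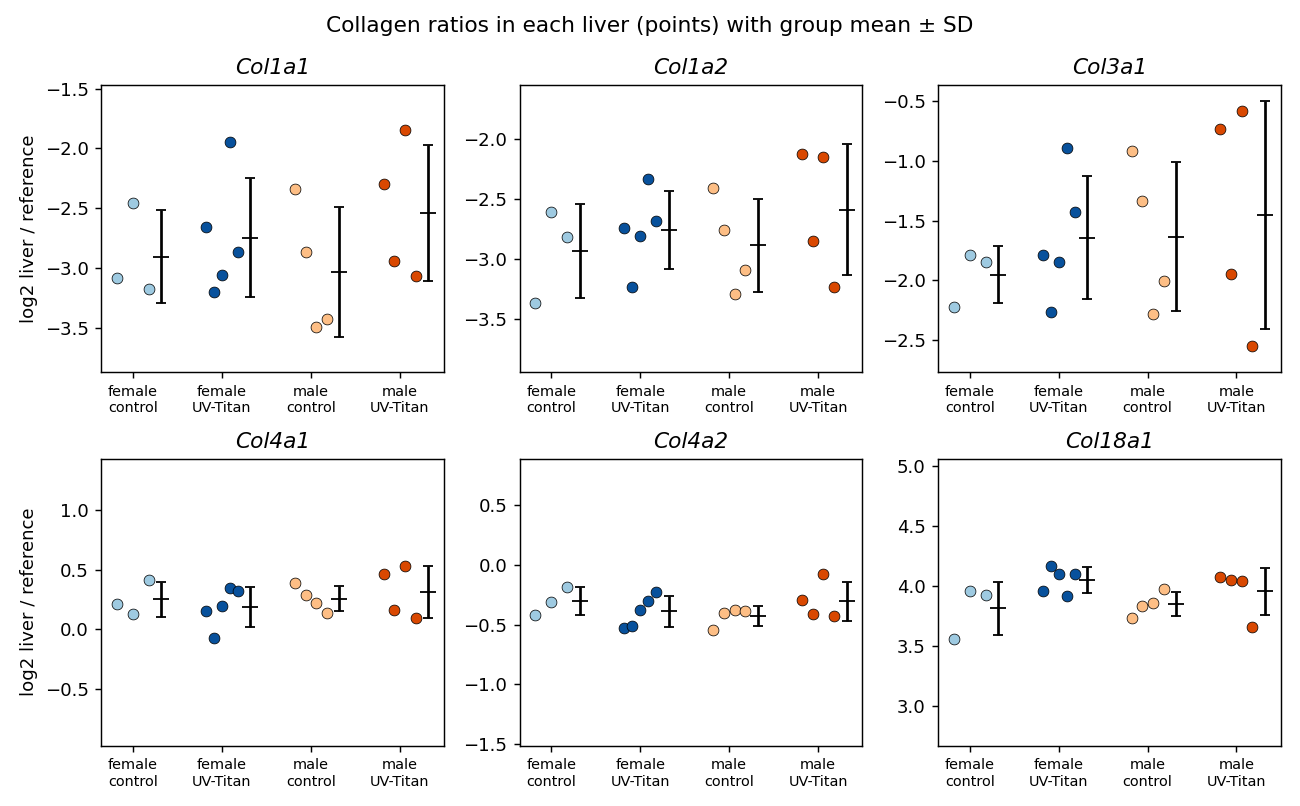
Log2 liver over reference for 6 collagens in each of the 16 livers (points, in 4 groups) with the group mean and SD beside them, and every panel covering the same height in log2. Col1a1, Col1a2 and Col3a1 spread over more than 1 log2 within single groups, while Col4a1, Col4a2 and Col18a1 stay closer together and all groups overlap.

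Col4a1 and Col4a2 encode the chains of the common basement membrane network. Col4a1 ratios were 0.21, 0.13 and 0.41 in female controls, 0.15, -0.08, 0.19, 0.34 and 0.32 in female UV-Titan, 0.39, 0.28, 0.22 and 0.13 in male controls and 0.46, 0.16, 0.53 and 0.09 in male UV-Titan livers. For Col4a2 the values were -0.42, -0.31 and -0.18, then -0.53, -0.51, -0.38, -0.30 and -0.23, then -0.55, -0.40, -0.37 and -0.38, and last -0.29, -0.41, -0.08 and -0.43 in the same order of groups. Male UV-Titan 5 had the highest ratio of both genes, and all groups overlapped. The UV-Titan differences of Col4a1 were -0.06 ± 0.11 in females and 0.05 ± 0.11 in males, and those of Col4a2 -0.09 ± 0.09 and 0.12 ± 0.09. Their limma adjusted p-values were 0.958, 0.979, 0.916 and 0.954. A second probe of each gave -0.12 and 0.13 for Col4a1 and -0.18 and 0.13 for Col4a2.

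Col4a4 and Col4a6 belong to the type IV chains of more restricted networks, such as those of kidney and smooth muscle. Col4a4 ratios were -0.58, -0.47 and -0.70 in female controls, -0.57, -0.32, -0.58, -0.44 and -0.61 in female UV-Titan, -0.37, -0.65, -0.65 and -0.71 in male controls and -0.70, -0.54, -0.31 and -0.51 in male UV-Titan livers. Col4a6 gave 0.18, 0.57 and 0.23, then 0.51, 0.80, 0.31, 0.35 and 0.15, then 0.59, 0.25, 0.54 and 0.09, and last 0.08, 0.42, 0.58 and 0.51. Groups overlapped for both genes. Their differences were 0.08 ± 0.10 and 0.10 ± 0.15 in females and 0.08 ± 0.10 and 0.03 ± 0.15 in males, with limma adjusted p-values of 0.928 to 0.994. A second Col4a6 probe, also well above background on all arrays, had a mean ratio of -2.27 against 0.39 for the one used, so the 2 probes of this gene disagreed on its relation to the reference. So did those of Col4a4, where a second probe, well above background on 15 arrays, had a mean ratio of 0.50 against -0.54, r = 0.07 with the one used over 16 arrays, and a female difference of 0.28.

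Col18a1 is the source of endostatin and lies in the walls of sinusoids. Its ratios were 3.56, 3.96 and 3.92 in female controls and 3.95, 4.17, 4.10, 3.92 and 4.10 in female UV-Titan livers. In males they were 3.73, 3.84, 3.86 and 3.97 in controls and 4.08, 4.05, 4.04 and 3.66 with UV-Titan. Female control 25 and male UV-Titan 17 were lowest, and the female groups overlapped between 3.92 and 3.96. The difference was 0.23 ± 0.11 log2 in females (95% interval 0.01 to 0.46), 0.11 ± 0.10 in males and 0.17 ± 0.08 over both. The limma adjusted p-values were 0.721, 0.959 and 0.677. A second Col18a1 probe gave 0.23 in females and 0.12 in males. In the liver channel alone the female difference was 0.11 log2 after quantile scaling and 0.42 with each array centred on its median, and without female control 25 it was 0.11 log2 as a ratio. The markers of hepatocytes (8 of 10 tested) lay between -0.53 and -0.30 in female controls and between -0.23 and 0.51 in female UV-Titan livers as a mean deviation, and those of endothelium (8 of 9 tested) between -0.31 and -0.09 and between -0.01 and 0.19. These ranges overlapped in the liver channel alone, at -0.09 to -0.04 and -0.07 to 0.21 for hepatocytes and at -0.20 to 0.02 and -0.0035 to 0.19 for endothelium. Their part in the Col18a1 difference was not tested. Without the 3 arrays with muscle or pancreas transcripts the male Col18a1 difference was 0.01.

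Col14a1 had ratios of 4.82, 5.10 and 5.05 in female controls and 5.06, 4.72, 4.76, 5.20 and 5.06 in female UV-Titan livers. Male controls had 5.04, 4.50, 4.72 and 4.87 and male UV-Titan livers 5.28, 4.96, 5.12 and 4.95. Male control 33 was lowest, and 1 male control, 31, lay within the range of the treated males. The difference was 0.29 ± 0.13 in males and -0.03 ± 0.13 in females (limma adjusted p = 0.95 and 0.992), and the female minus the male effect was -0.32 ± 0.18 (adjusted p = 0.98). Without male controls 31 and 33 the male difference was 0.28. Over the mean of the gene's probes it was 0.11, but the other probe was well above background on 0 arrays, so this mean is no check.

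Col16a1 and Col6a3 were highest in some of the same livers as type I collagen. Col16a1 ratios were -2.83, -2.86 and -2.87 in female controls, -3.12, -3.05, -2.93, -2.34 and -2.92 in female UV-Titan, -2.67, -3.01, -3.17 and -3.11 in male controls and -2.52, -3.07, -2.41 and -2.90 in male UV-Titan livers. Col6a3, the large chain of the beaded filaments of type VI collagen, gave -1.84, -1.75 and -1.61, then -1.82, -1.98, -1.59, -1.03 and -1.50, then -1.28, -1.68, -1.94 and -2.07, and last -1.32, -1.73, -1.10 and -2.05. Female UV-Titan 16 and male UV-Titan 5 and 3 were the highest for Col16a1. For Col6a3 the highest 3 were female UV-Titan 16, male UV-Titan 5 and male control 31. The differences were -0.02 ± 0.17 and 0.26 ± 0.17 for Col16a1 and 0.15 ± 0.22 and 0.19 ± 0.22 for Col6a3 in females and males, and limma adjusted p-values lay between 0.949 and 0.994.

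Some further collagens had the smallest p-values. In females these were Col11a1 (0.17 ± 0.09), Col9a2 (0.26 ± 0.15), a chain of a cartilage fibril-associated collagen, and Col25a1 (0.09 ± 0.06), a transmembrane collagen, on the higher side. On the lower side were Col12a1 (-0.11 ± 0.09) and Col6a1 (-0.18 ± 0.17), beside Col23a1 and Col15a1, which were not well above background on any female control array. In males the higher ones were Col7a1 (0.21 ± 0.09), the anchoring fibril collagen, Col6a2 (0.24 ± 0.12) and Col6a1 (0.27 ± 0.16), beside Col14a1. The lower ones were Col12a1 (-0.18 ± 0.09), a fibril-associated collagen, Col25a1 (-0.07 ± 0.06), Col15a1 (-0.06 ± 0.07) and Col24a1 (-0.04 ± 0.10). The male difference of Col7a1 was 0.05 in the liver channel, and leaving out 1 array moved its ratio difference between 0.12 and 0.29. Without the 3 arrays with muscle or pancreas transcripts it was 0.11, and that of Col6a1 0.40. None passed, and the limma adjusted p-values ran, for those with values here, from 0.783 to 0.892 in females and from 0.950 to 0.984 in males.

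Over both sexes Col7a1 (0.12 ± 0.07) and Col6a2 (0.12 ± 0.08) came after Col11a1 and Col18a1 on the higher side. Col12a1 (-0.14 ± 0.06), Col15a1 (-0.07 ± 0.05), Col22a1 (-0.02 ± 0.07) and Col27a1 (-0.01 ± 0.11) were on the lower side. Col6a1, the first chain of type VI collagen, had the smallest p for a difference between the sexes' effects below 0, at -0.45 ± 0.23 log2 for female minus male (limma adjusted p = 0.98). By p it was followed by Col14a1, Col23a1 (-0.24 ± 0.14) and Col4a2 (-0.21 ± 0.13) below 0 and by Col25a1 (0.16 ± 0.08), Col9a2 (0.28 ± 0.20), Col24a1 (0.12 ± 0.14) and Col18a1 (0.13 ± 0.15) above it. Between the sexes themselves Col25a1 (0.06 ± 0.04), Col15a1 (0.07 ± 0.05), Col5a3 (0.10 ± 0.08) and Col9a2 (0.12 ± 0.10) led in males. Col23a1 (-0.14 ± 0.07), Col6a1 (-0.14 ± 0.12), Col22a1 (-0.08 ± 0.07) and Col8a1 (-0.09 ± 0.08) led in females, with limma adjusted p = 0.977 for each of these 8.

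The main feature of these genes was the spread between animals of the same group. The SD between livers within groups was 0.65 log2 for Col3a1, 0.51 for Col1a1, 0.42 for Col1a2 and 0.35 for Col6a3, against a median of 0.13 over all tested genes. Of all tested genes 99.8%, 99.5%, 98.9% and 97.6% varied less than these 4. Each SD is that of the probe used, and a second Col3a1 probe followed the one used only loosely (r = 0.364 over 16 arrays). The median SD was 0.23 over the 11 fibrillar collagens, 0.15 over the 4 type IV chains and 0.16 over the 19 others. Not every fibrillar gene was wide: Col5a1, Col24a1, Col11a2 and Col11a1 had SDs of 0.14, 0.14, 0.14 and 0.12. Col4a1 had 0.17 and Col4a2 0.13, which 72.1% and 50.1% of tested genes fell below, while Col4a6 had 0.23 (89.5% below). Measured in the liver channel alone, the SDs were 0.65 for Col3a1, 0.52 for Col1a1 and 0.34 for Col1a2. They were 0.44 for Col4a6, 0.42 for Col6a3 and 0.41 for Col2a1, and 94.4% of tested genes or more varied less than each of these 6. Col2a1 ratios also split by slide, from 0.62 to 0.96 on slides 1 and 2 and from 0.19 to 0.50 on slides 3, 4 and 5. Col4a6 followed Col2a1 with r = 0.912, group means removed. The part of slide in the SDs of Col2a1 and Col4a6 was not tested.

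Repeat spots gave a measure of the array's own error. The Col1a1 probe was printed 10 times on each array, and the SD over its 10 spots was between 0.01 and 0.03 log2, with a median of 0.02. The SD between livers of a group was 0.51. A Col2a1 probe that is not the one used, also printed 10 times, had a spot SD of 0.03 to 0.13 (median 0.06) against 0.16 between livers of a group. This compares spots of 1 labelled extract with different animals, so labelling and dissection lie on the side of the animals. With slide as a term in the fit the SDs were 0.58 for Col1a1, 0.47 for Col1a2 and 0.71 for Col3a1. Without the 3 arrays that carried muscle or pancreas transcripts they were 0.42, 0.39 and 0.57, and 98.6% of tested genes or more varied less. The last 2 settings were chosen after seeing the data.

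**Figure D3:**
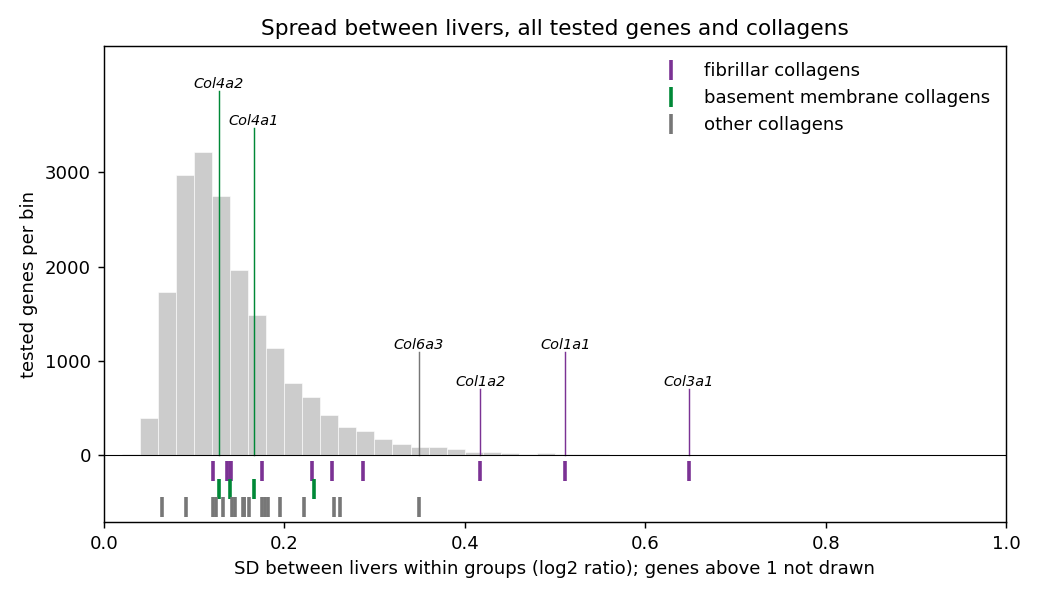
Histogram of the SD between livers within groups (log2 ratio) over the tested genes, in bins of 0.02, with the 34 collagens as coloured ticks under the axis by class. Col3a1, Col1a1, Col1a2 and Col6a3 lie in the right tail, and Col4a1 and Col4a2 lie in the body of the distribution.

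The livers with high type I and III collagen were also high in markers of portal fibroblasts, the connective tissue cells around portal veins. The mean deviation of the 8 portal fibroblast markers, all tested, was 0.47 in female UV-Titan 16, 0.44 in male UV-Titan 5, 0.27 in male UV-Titan 3 and 0.19 in male control 31. Among females its range was -0.21 to 0.02 for controls and -0.14 to 0.47 after UV-Titan, and among males -0.24 to 0.19 and -0.18 to 0.44. The 7 markers of activated stellate cells and myofibroblasts, all tested, were 0.29, 0.47, 0.24 and 0.49 in the same 4 livers. By group they ran from -0.21 to 0.06, -0.18 to 0.29, -0.25 to 0.49 and -0.13 to 0.47. Some markers are themselves genes of the matrix or of its processing. These are Eln, Mfap4, Fbln2 and Dpt for portal fibroblasts and Timp1 and Lox for activated stellate cells, and the lists below count them again. The 12 markers of hepatic stellate cells, which include Lrat and Reln, stayed between -0.17 and 0.13 on all arrays. The 4 tested markers of bile duct cells reached 0.35, 0.55 and 0.28 in female UV-Titan 16, male UV-Titan 5 and male UV-Titan 3, and 0.14 in male control 31. Male UV-Titan 5 was the array with muscle transcripts and male control 31 the one with the most pancreas transcripts. Female UV-Titan 16 and male UV-Titan 3 had mean deviations of -0.15 and -0.38 for muscle markers and -0.34 and -0.26 for pancreas markers. In bulk tissue more cells of a type and more RNA per cell cannot be told apart, and RNA came from random sections of each liver per the labels. The part of these cell types, or of muscle or pancreas tissue, in the collagen spread was not tested.

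**Figure D4:**
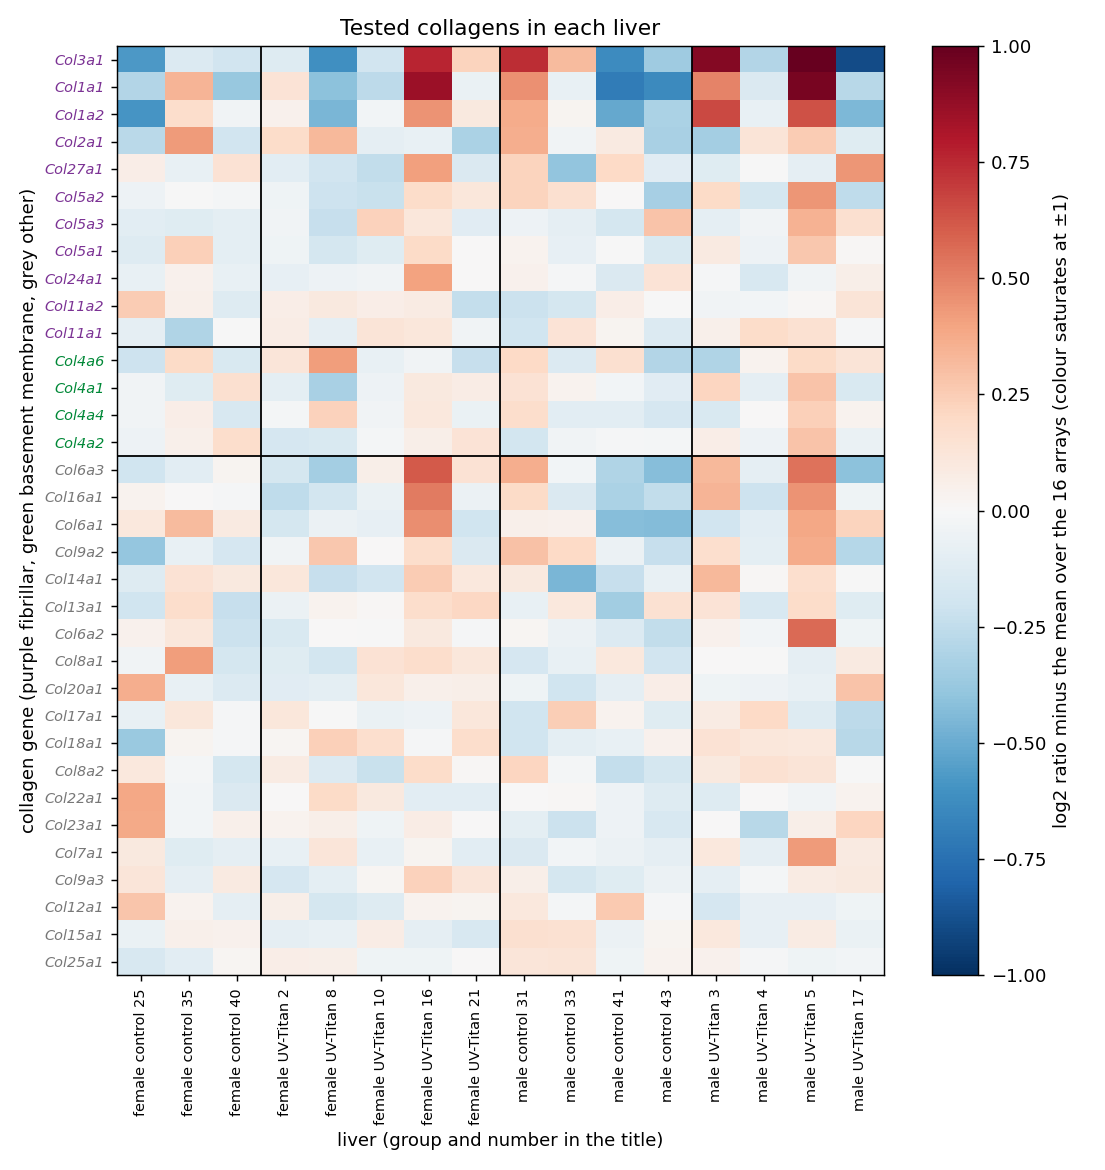
Log2 ratio of each of the 34 tested collagens in each of the 16 livers, minus the gene's mean over the arrays (red above, blue below, colour saturating at 1 log2), with genes sorted by class and by spread and black lines between groups and classes. Male UV-Titan 3 and 5, male control 31 and female UV-Titan 16 are red for Col1a1, Col1a2 and Col3a1, and the same columns are red for Col6a3 and Col16a1.

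Many collagens rose and fell together between livers, chains of one molecule among them but not set apart. Over the 16 arrays Col1a1 and Col1a2 had Pearson's r of 0.888 and Spearman's rho of 0.924, with permutation p of 4e-05 and 2e-05 and adjusted p of 0.00015 and 6e-05 over the 6 pairs computed. Leaving out the 2 arrays farthest from the Col1a1 median gave r = 0.853, and removing slide means gave 0.984. Col1a1 and Col3a1, which mix in the same fibres, had r of 0.857 and rho of 0.894 (permutation p of 5e-05 and 2e-05, adjusted 0.00015 and 6e-05). That r was 0.771 without the 2 farthest arrays and 0.947 with slide means removed. It holds for the Col3a1 probe used, which a second probe followed with r = 0.364. Without the shared reference signal, in the liver channel alone, r was 0.732 for Col1a1 with Col1a2 and 0.919 for Col1a1 with Col3a1.

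The other pairs were looser. Col4a1 and Col4a2 had r of 0.648 and rho of 0.591 (permutation p of 0.0072 and 0.018, adjusted 0.0087 and 0.022). This r was 0.404 without the 2 farthest arrays, so it rests in part on them, and 0.618 with slide means removed. In the liver channel alone it was 0.702 (permutation adjusted p = 0.0048). Col5a1 and Col5a2 had r of 0.686 and rho of 0.706 (permutation p of 0.0031 for each, adjusted 0.0061 and 0.0062), with 0.662 without the 2 farthest arrays and 0.754 with slide means removed. For Col6a1 and Col6a2 r was 0.643 and rho 0.594 (permutation p of 0.0041 and 0.018, adjusted 0.0061 and 0.022), with 0.602 and 0.699 in the same 2 checks. In the liver channel that pair had r = 0.449 and did not pass (permutation adjusted p = 0.096). Of the 6 pairs 1 joined classes: Col1a1 and Col4a1 had r of 0.603 and rho of 0.515 (permutation p of 0.013 and 0.043, adjusted 0.013 and 0.043), with 0.432 without the 2 farthest arrays and 0.700 with slide means removed. It did not pass in the liver channel (r = 0.379, permutation adjusted p = 0.15) or without the 3 arrays with muscle or pancreas transcripts (r = 0.415 over 13 arrays, permutation adjusted p = 0.16). Over those 13 arrays Col1a1 with Col1a2 had r = 0.847 and Col1a1 with Col3a1 r = 0.807 (permutation adjusted p of 0.0017 and 0.0033), and Col4a1 with Col4a2 had 0.787, Col5a1 with Col5a2 0.646 and Col6a1 with Col6a2 0.619 (0.0033, 0.025 and 0.029).

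As ratios, the shared movement did not keep to chain partners or to classes. With group means removed, over the 16 arrays and as a description, Col4a1 had r of 0.888 with Col6a3, 0.855 with Col3a1, 0.828 with Col5a2 and 0.785 with Col1a2, all above its 0.670 with Col4a2. In the liver channel alone Col4a1 had r of 0.641 with Col6a3 and, with group means kept, 0.702 with Col4a2. The order among ratios was therefore not shown there. Col5a2 had 0.874 with Col3a1 and 0.706 with Col5a1. Col1a1 had 0.844 with Col16a1 and 0.831 with Col5a1, and Col3a1 had 0.958 with Col1a2 and 0.940 with Col6a3. Other collagens did not follow Col1a1, with r of -0.04 for Col18a1, -0.05 for Col11a1, -0.26 for Col11a2 and -0.27 for Col20a1.

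**Figure D5:**
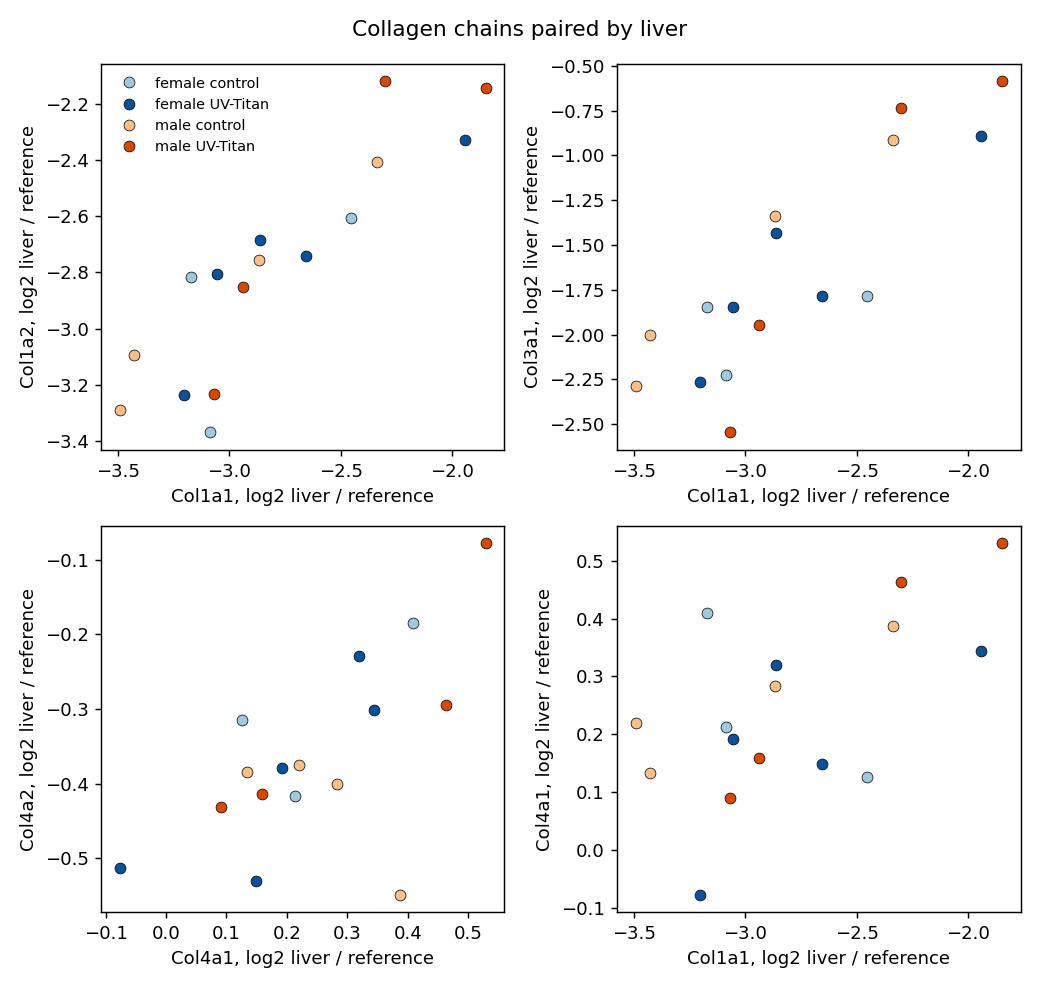
Log2 liver over reference of pairs of collagen chains, with each of the 16 livers as a point coloured by group. Col1a1 rises with Col1a2 and with Col3a1 (r of 0.888 and 0.857), and the points are more scattered for Col4a1 with Col4a2 and for Col1a1 with Col4a1 (r of 0.648 and 0.603).

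The genes most like Col1a1 were sought among 15805 genes well above background on all arrays, by r over the 16 arrays with group means removed. They were Cav1 (0.962), a coat protein of caveolae, Cd34 (0.959), a surface sialomucin of endothelial and fibroblast cells, Lrrc17 (0.942), Mfap2 (0.942), a microfibril protein, Fndc1 (0.940) and Ptn (0.914), a heparin-binding growth factor. Cd34 is also one of the portal fibroblast markers, and of those markers Eln, Mfap4, Fbln2 and Dpt are counted again among the fibril partners. For Col4a1 they were the laminin chain named Lamb1-1 on the array (0.909), Fbn2, a fibrillin (0.891), Fstl1, a follistatin-like secreted protein (0.890), Postn, a matrix protein of fibroblasts (0.888), Col6a3 (0.888) and the laminin chain Lama2 (0.866). These are the highest of many values and carry no test. All arrays share the reference RNA, and in the liver channel alone the same 12 values lay between 0.641 and 0.973.

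The enzymes that process collagen gave no call either. Of 25 tested genes of collagen synthesis and crosslinking 13 had higher and 12 lower means with UV-Titan in females and 16 higher and 9 lower in males, with medians of 0.00 and 0.04 and 0 past the threshold in limma in each direction. Of all tested genes 58.7% were higher in females and 56.7% in males, and 0% passed in either sex. The smallest p-values were those of the lysyl hydroxylases Plod2 (-0.20 ± 0.11 SE) and Plod1 (-0.12 ± 0.07) and the prolyl hydroxylase P4ha1 (-0.17 ± 0.12) in females. In males they were Plod3 (0.19 ± 0.06), the prolyl hydroxylase named Leprel2 (0.19 ± 0.09) and P4ha1 (0.21 ± 0.11). The limma adjusted p-values were between 0.794 and 0.854 in females and 0.950 in males. Liver channel values alone were -0.01, 0.01 and -0.05 in females and 0.07, 0.06 and 0.19 in males.

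Breakdown of collagen gave the smallest p-values near the family. Of 17 tested genes 10 were higher in females and 12 in males, beside 58.7% and 56.7% of all tested genes. The list also holds the protease inhibitors Timp1, Timp2, Timp3, Timp4 and Reck, so its counts and medians give no direction of breakdown. The medians were 0.01 and 0.12, and 0 genes passed the threshold, as did 0% of all genes. Mmp8, a collagenase stored in neutrophil granules, had differences of 0.63 ± 0.13 log2 (SE) in females and 0.35 ± 0.12 in males (limma adjusted p = 0.210 and 0.950), and of 0.49 ± 0.09 over both (adjusted p = 0.0911). Mmp9, a gelatinase also found in neutrophils, had 0.27 ± 0.09 and 0.20 ± 0.09. Pepd, the dipeptidase that frees proline, had -0.16 ± 0.10 in females, and Mmp2, a gelatinase of stromal cells, 0.35 ± 0.12 in males.

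Among 14 tested genes of collagen induction, which include the inhibitory Smad7, 7 were higher in females and 9 in males, with medians of -0.01 and 0.08. Tgfb1, the main fibrogenic cytokine, had 0.15 ± 0.07 and 0.14 ± 0.07 (0.10 and -0.02 in the liver channel alone), and its mediator Smad3 -0.14 ± 0.08 and 0.14 ± 0.08. Ctgf, a matricellular growth factor, had -0.17 ± 0.19 and -0.46 ± 0.18. Of 7 tested collagen receptors 5 were higher in each sex, with medians of 0.02 and 0.10. Gp6, the collagen receptor of platelets, had 0.45 ± 0.12 and 0.24 ± 0.11 (limma adjusted p = 0.468 and 0.950). The integrin chain Itga11 had -0.20 ± 0.11 and 0.13 ± 0.11, Lair1, an inhibitory receptor of leukocytes, 0.25 ± 0.19 in females, and Ddr2, a receptor kinase for fibrillar collagen, 0.34 ± 0.12 in males. None of these lists had a gene past the threshold in either direction, where 0% of all genes passed. Of all tested genes 58.7% were higher in females and 56.7% in males.

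The proteins that sit beside collagen gave no call. Of 24 tested fibril partners 15 were higher in females and 18 in males, with medians of 0.06 and 0.12. The smallest p-values were those of Tnc (-0.28 ± 0.11), a matrix protein of repair, Thbs1 (0.38 ± 0.16), a thrombospondin, and Eln (0.38 ± 0.20), elastin, in females. In males they were Thbs2 (0.24 ± 0.09) and the small proteoglycans Bgn (0.18 ± 0.07) and Fmod (0.28 ± 0.11). In the liver channel alone Bgn and Fmod had -0.04 and -0.03. Of 16 tested basement membrane partners 11 were higher in each sex, with medians of 0.04 and 0.08. Nid2, a nidogen, had -0.23 ± 0.11, Smoc2 0.28 ± 0.14 and the laminin chain Lama1 0.17 ± 0.11 in females. The laminin chains Lamb2 (0.29 ± 0.08) and Lama5 (0.18 ± 0.08) came first in males, and Lamb2 had 0.00 in the liver channel alone. No gene of either list passed the limma threshold, where 0% of all genes did. The shares higher over all tested genes were 58.7% in females and 56.7% in males.

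Over both sexes and between them these lists had 0 calls as well. Of all genes 0% were called over both sexes and for the female minus the male effect, and 0.0477% between males and females. The medians of the 6 lists over both sexes lay between 0.00 and 0.09. The smallest limma adjusted p-values were 0.0911 for Mmp8 and 0.233 for Gp6. For the female minus the male effect the gene with the smallest p in each list was, in turn, P4ha1 (-0.38 ± 0.16), Lamb2 (-0.35 ± 0.11), Mmp2 (-0.52 ± 0.18), Smad3 (-0.28 ± 0.11), Ddr2 (-0.41 ± 0.18) and Bgn (-0.23 ± 0.10), with limma adjusted p = 0.980 for each. Of 25 synthesis genes 6 were above 0 and 19 below in that contrast, where 52.5% of all genes were above 0. Between males and females 20 of the 25 synthesis genes were lower in males and 18 of the 24 fibril partners higher, with medians of -0.04 and 0.03.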

How the data were processed

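Liver RNA of 16 offspring was hybridised against universal mouse reference RNA on 2-colour Agilent arrays, 1 per animal. Per the labels, images were read with Agilent Feature Extraction 9.5.3.1, and the deposited scanner files hold spot intensity values, of which the mean signals and median backgrounds of both channels were used. Agilent's own log10 ratios, deposited in the same files, entered no result, while its processed signals gave an alternative. A second table deposited by the authors holds log2 ratios of the same arrays and served as an alternative. Its scale and direction matched red over green (lowest r over probes of an array 0.992), and how it was centred is not given in the sources used here.

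Control spots got weight 0. Signals were background-corrected (normexp, offset 50), loess-normalized within each array in limma 3.58.1 (R 4.3.3), and averaged over spots of 1 probe. The brightest probe stood for a gene. Tested genes had a liver signal well above background on 3 arrays or more. Group means (4 groups) were fitted by lmFit and eBayes, two-sided, and Benjamini-Hochberg adjustment over all 18849 genes at 0.05. Chain pairs were tested with two-sided permutation tests of 100000 resamples. The fitting code was tested on simulated data. Array number limits the precision.

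Values by array are given for the 4 collagens of each class with the highest liver signal. The 4 collagens with the smallest p in each direction, up to 3 genes per pathway list and the 6 genes most like Col1a1 and Col4a1 were also named. The members and lists were chosen with earlier results of these data known. The alternatives covered background correction, scaling, filters, probes, slide, scan day, array weights and left-out arrays.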

Additional observations from a re-analysis of the deposited data

Results flagged for a closer look

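Single livers stood apart from their group for 3 of 12 collagens. A test for one distant animal was run in 36 combinations of gene and group of 4 or 5 livers, and chance picks out about 1 in 20 such groups. Col4a2 in male control 31 had a log2 liver over reference of -0.55, against -0.40 for the nearest other male control. Col18a1 in male UV-Titan 17 had 3.66, against 4.04 for the nearest of its group. Col16a1 in female UV-Titan 16 had -2.34, against -2.92 for the nearest of its group. Male control 31 is also the array with the most pancreas transcripts and female UV-Titan 16 the one with the highest portal fibroblast markers. Male UV-Titan 17 had the lowest mean deviation of hepatocyte markers as ratios, at -0.60, but 0.09 in the liver channel alone. The part of any of these was not tested.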

How the results depend on the processing

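In 132 of 132 combinations of comparison and setting, limma called 0 collagens. Single-gene values were kept for Col1a1, Col1a2, Col3a1, Col5a1, Col4a1, Col4a2, Col18a1, Col14a1, Col7a1 and Col6a1 only. All 1320 of them stayed on the same side of the threshold (lowest limma adjusted p = 0.237). Class medians moved by less than their spread in 406 of 424 settings. Centring the liver channel on its array median gave 0.17 (type IV) and 0.061 (other) in females, -0.061 and 0.023 in males, 0.21, -0.012 and 0.10 (fibrillar) for the female minus the male effect, and 0.12 for type IV in males against females. Quantile scaling of that channel gave -0.020 for the female minus the male effect of other types. Other types had 0.084 in females and 0.13 over both sexes with Agilent's processed signals, and 0.11 over both sexes among genes above background on all arrays or without male controls 31 and 33. With 1 array per group, slide 5 gave 0.32, 0.14 and 0.11 for fibrillar, type IV and other types in females, slide 1 gave -0.051 for type IV and slide 4 gave 0.19 for other types in males. The causes were not tested. Of 30 pair values 25 held. The others were 0.449 for Col6a1 with Col6a2 in the liver channel (permutation adjusted p = 0.096), 0.379 and 0.415 for Col1a1 with Col4a1 there and without 3 arrays, and 0.404 and 0.432 for Col4a1 with Col4a2 and Col1a1 with Col4a1 without the 2 farthest arrays. The 13-array pairs and counts, the counts without Col15a1 and Col23a1 and the spread settings were added after seeing the data. No paired analysis by replicate number was possible because the groups share none. Slide was used as a block instead, and 0 collagens were called. Dim probes, under background on some arrays, limit Col12a1, Col15a1, Col22a1, Col23a1 and Col9a3.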
